A study of Mus musculus with 18 samples.

Results

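Ion channels and transmitter receptors were examined in ribosome footprint and mRNA libraries of embryonic mouse cortical neurons. Genes were taken by symbol, as the ionotropic and metabotropic glutamate receptors (Gria, Grik, Grin, Grm), the GABA receptors (Gabra, Gabrb, Gabrg, Gabbr), and the sodium (Scn), calcium (Cacna), potassium (Kcn) and hyperpolarisation-activated (Hcn) channel families. Of 24035 named genes 130 matched, and the 73 with at least 10 counts in at least 3 of 17 libraries are described. The counts thus chose these genes, so their detection and levels below are a description, without a test.

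Constructs of MTOR, the kinase of the mTOR complexes, were delivered by in utero electroporation into the cortex of C57BL/6 embryos at embryonic day 14. At embryonic day 18 the neurons that had taken up a construct were isolated by flow cytometry. The construct was MTOR in its wild-type form (WT) or with C1483Y or L2427P, which are amino acid substitutions, and each of these 3 had 3 footprint and 3 mRNA libraries. Footprints are the mRNA stretches that a ribosome shields from RNase I. The WT neurons thus also received a construct, and electroporation leaves the cells their own Mtor gene. The labels name neither the promoter of the constructs nor the number of embryos behind a library. No label says that replicates came from separate animals, so the p-values measure only the spread between libraries, which may be technical.

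Neurons set their excitability through these proteins. Sodium and calcium channels carry depolarising current, potassium channels repolarise the membrane, and HCN channels carry a cation current that opens on hyperpolarisation. Glutamate opens AMPA, kainate and NMDA receptors, and GABA opens the GABA-A chloride channels. Variants of many of these genes cause epilepsy, which is also a feature of the cortical malformations named in the series title.

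The libraries differed in how completely they sampled genes. Footprint libraries held 7695442 to 34094913 counts on named genes and mRNA libraries 18627076 to 53283035. Of the 5000 most abundant genes, 52.0% had no count in mRNA library L2427P replicate 3, 23.5% in mRNA library C1483Y replicate 3 and 16.7% in footprint library WT replicate 1. Every count of footprint library WT replicate 3, which has the highest footprint total, was a multiple of 3. Divided by 3 its total is 11364971, and the highest of the other footprint libraries is 23858123. Values and gene names were out of step in 46 of 58 tested windows of footprint library C1483Y replicate 3. That library was not used, which leaves 2 C1483Y footprint libraries. Of 6 neuron markers, Tubb3 and Dcx, cytoskeletal proteins of young neurons, had counts in all 17 libraries, as did Map2, Stmn2 and Mapt. Median footprint levels of Tubb3 and Dcx were 5130 and 1503 CPM (counts scaled to the library's total over named genes). Dcx footprints fell to 14.7 CPM in a WT library, and Rbfox3 was at 0 in 4 footprint and 5 mRNA libraries. The 10 projection neuron markers summed to 4192 to 5367 CPM in footprints and 1508 to 1928 CPM in mRNA. Among them Slc17a7, a vesicular glutamate transporter of mature neurons, was at 0 in 7 libraries of each assay. Fezf2 was at 0 in 4 footprint and 8 mRNA libraries. Astrocyte markers summed to 344 to 931 and 107 to 882 CPM, progenitor markers to 895 to 1663 and 184 to 619 CPM, and interneuron markers to 4.42 to 249.3 and 0 to 127 CPM. The haemoglobin genes Hbb-bs, Hbb-bt, Hba-a1 and Hba-a2 were at 0 in all 17 libraries.

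The channel and receptor genes had steady summed levels but patchy single values. Their sum was 2221 to 3987 CPM in footprints and 2123 to 2693 CPM in mRNA. The WT footprint sum averaged 3072 ± 822 CPM (SD, n = 3), that of C1483Y 2468 ± 350 CPM (SD, n = 2) and that of L2427P 2740 ± 612 CPM (SD, n = 3). The mRNA sum averaged 2408 ± 251, 2464 ± 166 and 2419 ± 266 CPM in the same order (SD, n = 3 each). All these sums overlapped between the genotypes. The number of genes with any count ranged from 28 to 63 of 73 in footprint libraries and from 11 to 67 in mRNA libraries, where L2427P replicate 3 had the fewest and WT replicate 2 the most.

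**Figure D1:**
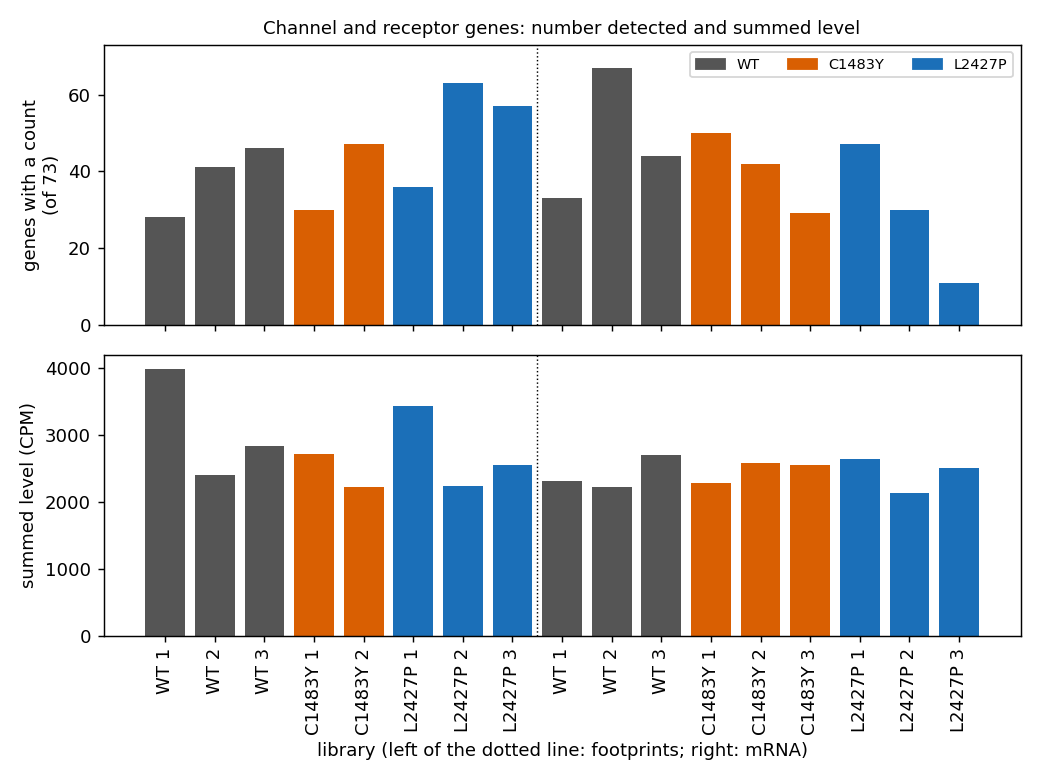
Number of the 73 channel and receptor genes with at least 1 count (upper bars) and their summed level in CPM (lower bars) in each library, coloured by construct. mRNA library L2427P replicate 3 had 11 genes with a count, but its summed level, 2500 CPM, lay among those of the other mRNA libraries (2123 to 2693 CPM).

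Of the single footprint values, 40.4% were at 0 and 47.3% were 10 counts or more, and of the mRNA values 46.3% and 46.1%. For all 11072 genes that meet the same minimum, 28.9% of the footprint values and 31.4% of the mRNA values were at 0. A level is therefore often absent in 1 library and clear in the next of the same group. A count of 0 allows up to 3 counts, which is 0.126 to 0.390 CPM in the footprint libraries other than WT replicate 3 and 0.0563 to 0.161 CPM in the mRNA libraries, for counting error only. For footprint library WT replicate 3 the limit is 0.0880 CPM as deposited and 0.264 CPM with its counts divided by 3. In such bulk libraries fewer cells expressing a gene and less RNA per cell cannot be told apart. Of the 73 genes 28 had 10 counts in at least 9 libraries, 8 in at least 15, and Gria2 and Gabbr1 in all 17. At the threshold, 11 genes were included with exactly 3 libraries, among them Kcna2 and Cacna1g, and 9 were excluded with 2, among them Grin2a, Grin3a and Kcnma1. Another 37 matched names had no library with 10 counts.

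**Figure D2:**
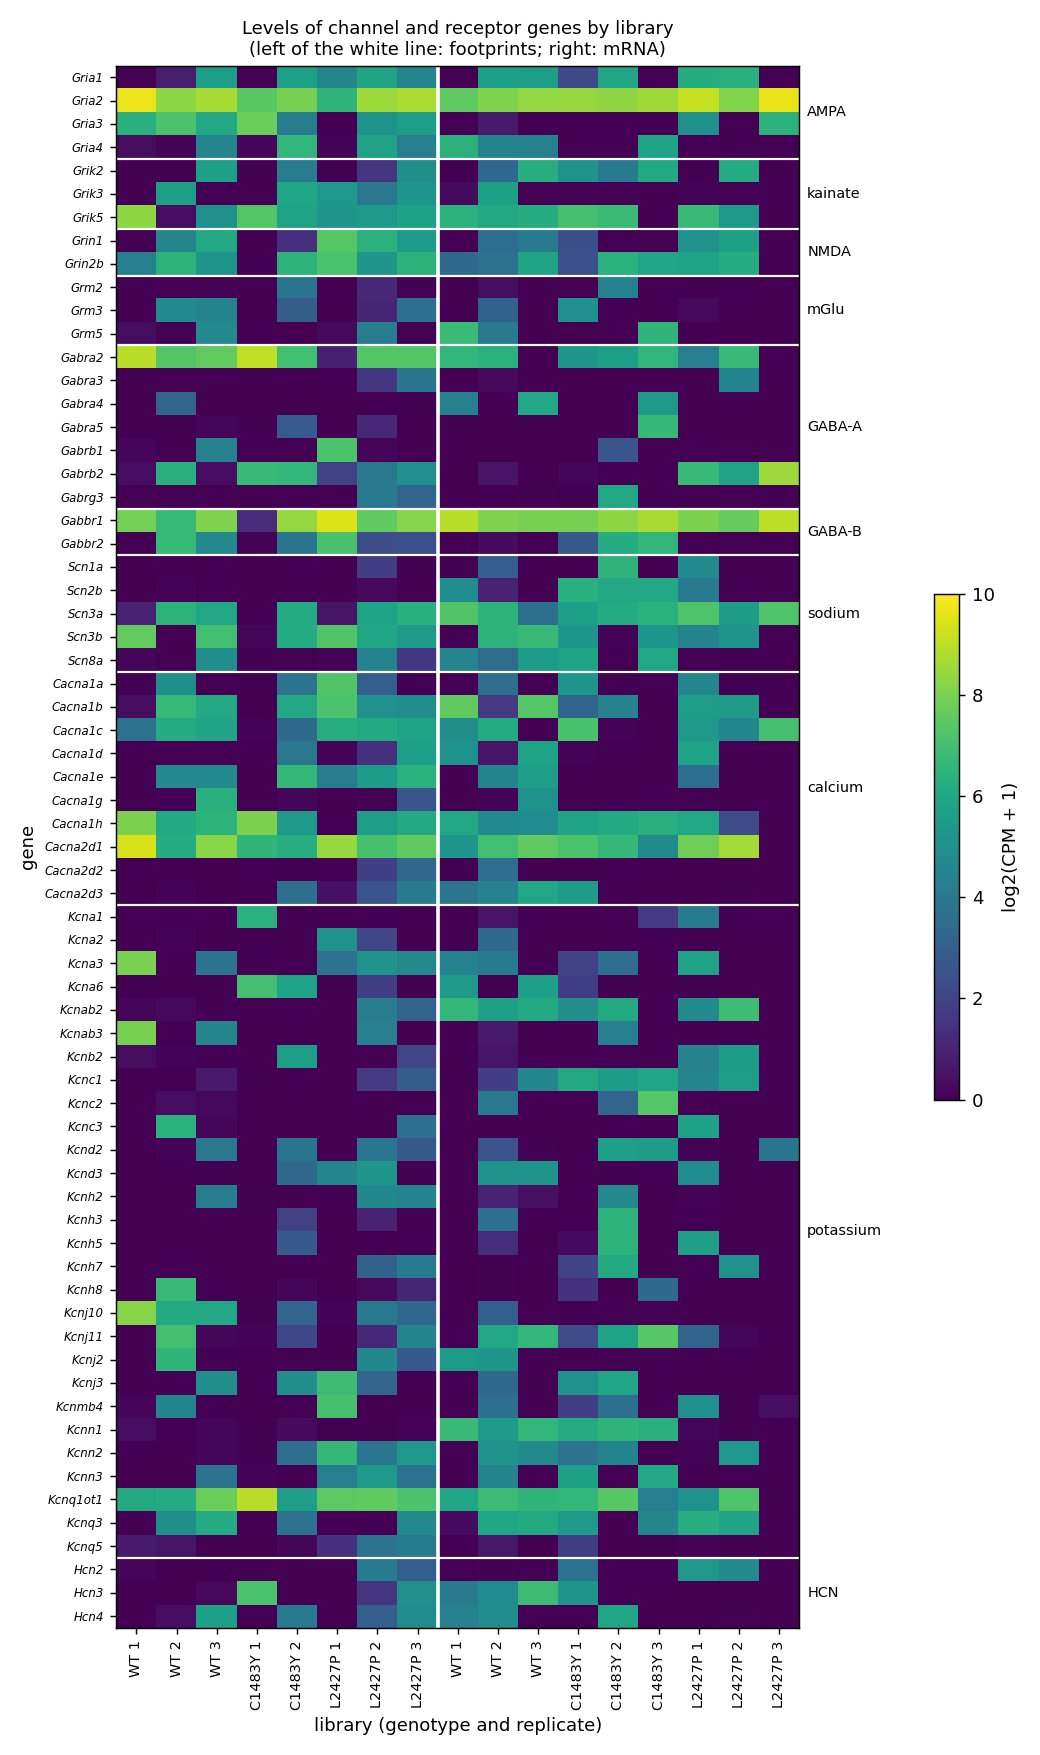
Level of 67 of the 73 genes, as log2(CPM + 1), in the 8 footprint and 9 mRNA libraries, grouped by receptor or channel family. Gria2 and Gabbr1 have 10 counts or more in every library, while most other rows alternate between clear levels and 0 within a group.

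AMPA receptors, which carry fast excitatory transmission, were represented by all 4 subunit genes. Gria2, on chromosome 3 from 80681450 to 80804227 (GRCm38), encodes the subunit that makes the receptor nearly impermeable to calcium once its RNA is edited. Its footprints stood at 838, 317 and 410 CPM in WT, at 173 and 248 CPM in C1483Y and at 91.3, 367 and 422 CPM in L2427P. Its mRNA stood at 182, 267 and 334 CPM in WT, at 340, 324 and 383 CPM in C1483Y and at 555, 272 and 808 CPM in L2427P. The C1483Y footprints lay below all 3 WT libraries, as did those of 4.93% of all genes tested. In L2427P the lowest library lay below WT and the others within its range. Gria2 held the most counts of the 73 genes in 11 of 17 libraries, although counts also depend on transcript length, for which CPM is not scaled. Gria1, the subunit tied to activity-dependent insertion at synapses, had 10 counts in 11 libraries, Gria3 in 10 and Gria4 in 8.

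Among the kainate receptors, Grik5, a subunit that works in complexes with Grik1 to Grik3, had 10 counts in 14 libraries, Grik2 in 10 and Grik3 in 7, while Grik1 had none and Grik4 2. Grik5 averaged 86.1 ± 103 CPM in footprints (SD, n = 8) and 67.8 ± 46.8 CPM in mRNA (SD, n = 9). The footprint mean included 314 CPM in WT replicate 1, and the kainate genes as a family summed to 50.4 to 314 CPM in footprints.

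NMDA receptors were represented by the obligatory subunit Grin1 and by Grin2b, the GluN2 subunit that prevails before birth. Grin2b footprints were at 18.8, 88.0 and 35.1 CPM in WT, at 0.0422 and 86.9 CPM in C1483Y and at 141, 35.8 and 85.6 CPM in L2427P. In mRNA it was at 10.02, 12.1 and 56.5 CPM in WT, at 4.42, 83.3 and 59.7 CPM in C1483Y and at 55.4, 72.7 and 0 CPM in L2427P. The groups overlapped in both assays. Grin2a, the subunit that rises after birth, had 10 counts in 2 libraries against 15 for Grin2b, and Grin1 had them in 11. Grin2d, also an early subunit, had them in 1. The metabotropic receptors were sparse, with 10 counts in 7 libraries for Grm3, 5 for Grm5 and 4 for Grm2, and summed levels of 0 to 46.5 CPM in footprints and 0 to 111 CPM in mRNA.

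GABA-A receptors are pentamers of mostly alpha, beta and gamma subunits, and Gabra2 had 10 counts in 15 libraries. Gabra2 footprints were at 494, 158 and 193 CPM in WT, at 521 and 123 CPM in C1483Y and at 0.821, 159 and 157 CPM in L2427P. Gabra2 mRNA was at 98.3, 82.9 and 0.0209 CPM in WT, at 38.3, 49.4 and 96.1 CPM in C1483Y and at 18.4, 106 and 0 CPM in L2427P. L2427P footprints, WT mRNA and L2427P mRNA each had a library at or near 0, and the groups overlapped. Gabrb2, a beta subunit, had 10 counts in 10 libraries.

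These subunit genes lie in clusters, and neighbours differed in detection. On chromosome 5, Gabra2 had 10 counts in 15 libraries, Gabra4 in 4, Gabrb1 in 3 and Gabrg1 in 1. On chromosome 11 Gabrb2 had them in 10 and Gabra6 in 0. The 100 bases before the RefSeq start (GRCm38.p6) are printed for 3 members of the chromosome 5 cluster, to set the frequently detected gene beside its rarely detected neighbours, with CG dinucleotides in capitals. They are chr5:71095850-71095949 on the minus strand for Gabra2, chr5:71658309-71658408 on the minus strand for Gabra4 and chr5:71657821-71657920 on the plus strand for the first start of Gabrb1.
Gabra2: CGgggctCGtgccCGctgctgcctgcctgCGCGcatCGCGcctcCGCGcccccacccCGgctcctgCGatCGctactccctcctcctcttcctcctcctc
Gabra4: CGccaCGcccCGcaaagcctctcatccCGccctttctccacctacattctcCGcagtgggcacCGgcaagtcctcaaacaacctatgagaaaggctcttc
Gabrb1: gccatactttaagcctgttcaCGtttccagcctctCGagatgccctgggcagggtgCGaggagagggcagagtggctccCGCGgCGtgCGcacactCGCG
The Gabra2 window holds 12 CG, the Gabra4 window 6 and the Gabrb1 window 9. Among 32851 such windows of all genes, 12.1%, 34.3% and 22.2% hold at least as many. The window of a second Gabrb1 start, not printed, holds 2 CG, and 62.0% of all windows hold at least as many. Of the 73 genes 49 matched 64 windows, with a median of 5 CG against 3 for all windows, and 93.8% of them held a CG against 79.3%. The windows describe sequence only, and their part in the levels was not tested. Gabra4 and Gabrb1 lie on opposite strands and overlap at their starts by 388 bases, so each of their printed windows lies within the other gene. Their counts are uncertain where counting ignored strand.

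GABA-B receptors, which signal through G proteins, need both subunits at the cell surface. Gabbr1 footprints were at 240, 104 and 264 CPM in WT, at 1.43 and 337 CPM in C1483Y and at 715, 187 and 287 CPM in L2427P. Gabbr1 mRNA was at 480, 266 and 244 CPM in WT, at 244, 316 and 407 CPM in C1483Y and at 259, 198 and 518 CPM in L2427P. The mRNA groups overlapped throughout, and among the footprint libraries C1483Y replicate 1 stood far below the rest. Gabbr2 was detected in 10 libraries, and its mRNA was at 0, 0.236 and 0 CPM in WT, at 6.17, 71.7 and 98.2 CPM in C1483Y and at 0 in all 3 L2427P libraries. C1483Y mRNA of Gabbr2 thus lay above both other groups. Of all genes tested in mRNA, 3.15% lay above WT in C1483Y, and 4.88% lay below C1483Y in L2427P. Gabbr2 footprints were at 0, 103 and 25.0 CPM in WT and at 0.0844 and 13.7 CPM in C1483Y. In L2427P they were at 140, 4.17 and 4.36 CPM, and the footprint groups overlapped.

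Of the voltage-gated sodium channels, Scn3a, the alpha subunit that prevails in the fetal brain, had 10 counts in 14 libraries. Its footprints were at 0.910, 87.8 and 62.6 CPM in WT, at 0 and 69.8 CPM in C1483Y and at 0.448, 54.6 and 80.1 CPM in L2427P. Scn3a mRNA was at 154, 87.9 and 11.7 CPM in WT, at 49.7, 70.6 and 82.4 CPM in C1483Y and at 151, 45.4 and 150 CPM in L2427P. Every mRNA library thus had the gene, and replicate 1 of each footprint group was near 0. Scn8a, the alpha subunit of mature axon initial segments, had 10 counts in 8 libraries, and Scn1a, which prevails in interneurons after birth, in 4. Among the auxiliary beta subunits Scn3b had them in 12 libraries and Scn2b in 6. Scn2a is listed as Scn2a1 in the files, which the symbol pattern does not match, and had 10 counts in 11 libraries.

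The calcium channel genes were led by Cacna2d1, the auxiliary subunit that binds gabapentin and promotes surface expression of the channel. Its footprints were at 678, 73.1 and 296 CPM in WT, at 93.2 and 74.8 CPM in C1483Y and at 354, 134 and 186 CPM in L2427P. In mRNA it was at 37.4, 126 and 189 CPM in WT, at 142, 99.7 and 26.5 CPM in C1483Y and at 228, 394 and 0 CPM in L2427P. The C1483Y footprints lay at the low end of WT and below all L2427P libraries, and 13.9% of all genes tested also separated the mutants so. Cacna1h, a low-threshold T-type alpha subunit, averaged 104 ± 99.0 CPM in footprints (SD, n = 8) and 41.9 ± 28.0 CPM in mRNA (SD, n = 9) and had 10 counts in 15 libraries. Cacna1b (N-type) and Cacna1c (L-type) had them in 13 each, Cacna1e (R-type) in 9 and Cacna1a (P/Q-type) in 7.

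Potassium channel genes were the most numerous, with 30 of 60 matched names included. Kcnq3, a subunit of the M-current that limits repetitive firing, had 10 counts in 11 libraries. Its footprints were at 0, 30.6 and 69.4 CPM in WT, at 0 and 12.8 CPM in C1483Y and at 0, 0 and 25.4 CPM in L2427P. Its mRNA was at 0.220, 59.6 and 68.2 CPM in WT, at 40.3, 0 and 22.6 CPM in C1483Y and at 74.6, 55.7 and 0 CPM in L2427P. Each footprint group had a library at 0, and the groups overlapped in both assays. Kcnj11, the pore subunit of ATP-sensitive potassium channels, had 10 counts in 10 libraries, with footprints from 0 to 124 CPM and mRNA from 0 to 170 CPM. The HCN genes were sparse, with 10 counts in 7 libraries for Hcn3 and Hcn4 and 5 for Hcn2.

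Kcnq1ot1 carries a potassium channel symbol but is a long noncoding RNA, known for silencing neighbouring imprinted genes on the paternal chromosome. It lies on chromosome 7 from 143213111 to 143296547 (GRCm38), within the span of Kcnq1 from 143106877 to 143427050. Its footprint counts gave 66.3, 70.1 and 217 CPM in WT, 479 and 48.1 CPM in C1483Y and 178, 188 and 142 CPM in L2427P. Its mRNA libraries gave 57.2, 115 and 93.1 CPM in WT, 96.8, 170 and 19.0 CPM in C1483Y and 33.7, 152 and 0.0477 CPM in L2427P. The groups overlapped in both assays. Kcnq1 itself had no library with 10 counts, and no source states whether the counting used strand.

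**Figure D3:**
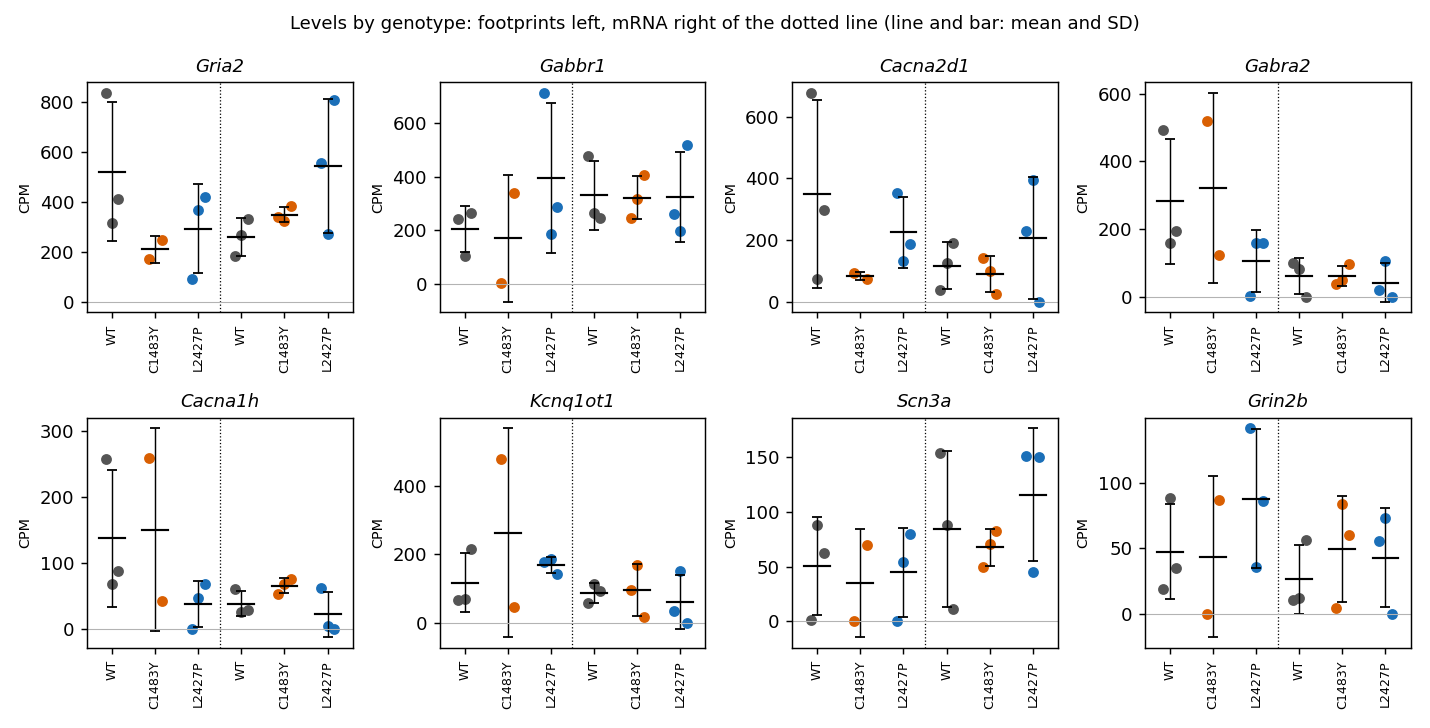
Levels in CPM of 8 well-detected genes by construct, with each library as a point and the group mean and SD as line and bar (n = 3, but n = 2 for C1483Y footprints). The points of a group spread widely, as for Cacna2d1 footprints in WT, at 73.1 to 678 CPM.

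Of 27 genes listed for their link to epilepsy 26 matched by name, 20 were among the 73, and 12 had 10 counts in at least 9 libraries. Among them were Scn3a, Kcnq3, Kcnc1, Gabrb2, Gabbr2, Grin1, Grin2b, Cacna1e and Cacna1h. Kcnh1, Kcnma1, Grin2a and Grin2d were among those below the minimum. The other 8 of the 20 had 10 counts in fewer than 9 libraries. Scn1a reached 2.56 CPM in footprints and 89.0 CPM in mRNA, Scn8a 30.0 and 60.8 CPM and Cacna1a 155 and 37.5 CPM. Kcna1 and Kcna2, subunits of axonal potassium channels, reached 82.9 and 33.6 CPM in footprints and 15.9 and 10.1 CPM in mRNA. Cacna2d2, an auxiliary calcium channel subunit, reached 9.31 and 10.9 CPM.

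Among 61 other genes of the pathway, such as scaffolds, auxiliary subunits and chloride transporters, 42 had 10 counts in at least 3 libraries and 30 in at least 9. Ank2 and Ank3, ankyrins that anchor channels in the membrane, had them in 17 and 16 libraries, with median levels of 347 and 282 CPM in footprints and 137 and 102 CPM in mRNA. Slc12a2, the chloride importer that makes GABA depolarising in immature neurons, had 10 counts in 14 libraries. Slc12a5, the chloride exporter of mature neurons, had them in 1.

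The mRNA comparisons ask which transcripts differ between neurons with mutant and with wild-type MTOR. Of the 73 genes 54 passed edgeR's count filter in mRNA, and 0 were called after adjustment over 9558 genes in any of the 4 comparisons. All comparisons with WT share the WT libraries. In C1483Y against WT, 0% of all genes were called and 1.59% had an unadjusted p below 0.05, among them 1 of the 54. DESeq2, which gave an adjusted p for 45 of them, called 0 (2.02% of all genes). In L2427P against WT, 0% were called and 2.42% had such a p, among them 8 of the 54, and DESeq2 called 9 of 45 (3.39% of all genes). For both mutants against WT, 0% were called and 2.24% had such a p, among them 3 of the 54, and DESeq2 called 6 of 45 (3.16%). In L2427P against C1483Y, 0.0105% were called and 3.72% had such a p, among them 9 of the 54, and DESeq2 called 11 of 45 (5.9%). The genes that passed the filter through the libraries where they are high had to differ between libraries, so no support is drawn from these counts. The L2427P group includes the library with 62 of the 73 genes at 0, and the part of that library in the L2427P counts was not tested. The median standard error of the 54 log2 differences was 4.31 in L2427P against WT.

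Kcnn1 encodes SK1, a potassium channel opened by intracellular calcium, and lies on chromosome 8 from 70843158 to 70865691. Its mRNA was at 108, 41.9 and 94.5 CPM in WT, at 70.6, 89.1 and 80.0 CPM in C1483Y and at 0.131, 0.0537 and 0 CPM in L2427P. All 6 libraries of WT and C1483Y were thus clear, with 1776 to 5413 counts each, and the L2427P libraries had 7, 1 and 0 counts. The log2 difference of L2427P was -10.22 from WT (SE 4.45, edgeR adjusted p = 1.00) and -10.13 from C1483Y (SE 4.43, edgeR adjusted p = 1.00). It did not pass by edgeR, and DESeq2 called both (adjusted p = 7.64e-08 and 7.33e-08). Over 13 alternatives to the first, the adjusted p ranged from 7.64e-08 to 1.00, and DESeq2's was the only one below 0.05. Kcnn1 had 0 to 3 counts in each footprint library.

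In C1483Y against WT the smallest p was that of Kcnd3, a subunit of A-type potassium channels, whose mRNA was at 0, 33.6 and 34.8 CPM in WT and at 0 in all 3 C1483Y libraries (edgeR adjusted p = 1.00, none from DESeq2). For both mutants it was Kcna6, a delayed-rectifier potassium channel, at 40.5, 0 and 49.1 CPM in WT, at 2.65, 0 and 0 CPM in C1483Y and at 0 in L2427P (edgeR adjusted p = 1.00, DESeq2 adjusted p = 0.000260). In both genes a WT library was also at 0, so the groups overlapped.

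Read by overlap alone, 6 of the 54 mRNAs lay below every WT library in all 3 L2427P libraries, against 6.25% of all genes, among them Kcnn1, Scn8a, Gria4, Cacna2d3 and Hcn3. Above every WT library lay 1, against 2.18%. It was Gabrb2, at 0, 0.448 and 0 CPM in WT and at 110, 53.8 and 369 CPM in L2427P. It was named here after its values were seen. In C1483Y 3 lay above (3.15% of all genes) and 2 below (4.67%). With all 6 mutant libraries against WT, 0 lay above (0.241%) and 0 below (1.4%). In L2427P against C1483Y 1 lay above (2%), which was Gabrb2, and 5 below (4.88%).

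At the footprint level 65 of the 73 genes were tested among 10315, and edgeR called 0 in each of the 4 comparisons, where 0% of all genes were called. At an unadjusted p below 0.05 there were 4 of the 65 in C1483Y against WT (4.4% of all genes), 3 in L2427P against WT (3.76%), 5 with the mutants averaged (4.44%) and 0 in L2427P against C1483Y (1.27%). In the same order DESeq2 called 3 of 52 genes with an adjusted p (9.55% of all genes), 1 of 39 (3.82%), 5 of 45 (8.76%) and 2 of 52 (6.01%). Leaving out footprint library C1483Y replicate 2 gave 1 edgeR call, Gabbr1, against WT (1.3% of all genes were called) and between the mutants (1.06%). That fit holds a single C1483Y library, the one at 1.43 CPM, and assumes that it varies like the other groups. By overlap, 3 of the 65 lay above every WT library in C1483Y (6.61% of all genes) and 3 below (4.93%), Gria2 among the latter. Against WT, 4 lay above in L2427P (6.97%) and 2 below (1.65%). In L2427P 9 lay above every C1483Y library (13.9%), among them Cacna2d1, Cacna1c and Grin1, and 3 below (4.8%). The median standard error of the 65 log2 differences was 3.30 for both mutants against WT.

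In C1483Y against WT the smallest footprint p was that of Kcna6, at 0 in all WT libraries, at 127 and 55.3 CPM in C1483Y and at 0, 2.66 and 0 CPM in L2427P (edgeR adjusted p = 0.71, DESeq2 adjusted p = 0.000806). Both C1483Y libraries lay above all others. In L2427P it was Kcnd3, at 0 in WT, at 0 and 9.92 CPM in C1483Y and at 22.5, 36.9 and 0 CPM in L2427P (edgeR adjusted p = 0.764, DESeq2 adjusted p = 0.106). For both mutants it was Kcnab3, a cytosolic beta subunit, at 247, 0 and 22.6 CPM in WT, at 0 in both C1483Y libraries and at 0, 18.3 and 0 CPM in L2427P (edgeR adjusted p = 0.791, DESeq2 adjusted p = 4.35e-07). The Kcnd3 and Kcnab3 groups overlapped. Between the mutants it was Gabrb1, at 0 in C1483Y and at 144, 0.0948 and 0 CPM in L2427P (edgeR adjusted p = 0.925, none from DESeq2), which rested on 1 library.

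Across both mutants, 1 of the 65 genes had footprints below every WT library, against 0.882% of all genes, and 0 lay above (1.32%). It was Kcnj10, the inward rectifier through which astrocytes take up potassium, named after its values were seen. Its footprints were at 291, 66.6 and 63.0 CPM in WT, at 0.0422 and 8.53 CPM in C1483Y and at 0.0746, 15.6 and 9.43 CPM in L2427P. The log2 difference was -4.81 (SE 2.69, edgeR adjusted p = 0.791) and did not pass, and DESeq2 called it (adjusted p = 0.0247). Footprints of the 6 astrocyte markers summed to 593 to 725 CPM in WT and 344 to 931 CPM in the mutants. Single markers went both ways, and Aqp4 was near 0 throughout WT (at most 0.130 CPM) and at 0 in both C1483Y libraries. Mean footprints of Gfap, Aqp4 and Aldh1l1 were lower in C1483Y than in WT, and those of Slc1a3, Aldoc and Gja1 higher. In L2427P those of Gfap, Aldh1l1 and Slc1a3 were lower than in WT, and those of Aqp4, Aldoc and Gja1 higher. The part of these markers in the result was not tested. In mRNA Kcnj10 had counts in WT replicate 2 alone, at 7.20 CPM.

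The best-detected genes bound what these libraries can show. For both mutants against WT, Gria2 differed by -1.25 in footprints (SE 0.68, edgeR adjusted p = 0.791) and by 0.53 in mRNA (SE 0.61, adjusted p = 1.00), both on the log2 scale. Gabbr1 differed by 0.25 (SE 0.89) and -0.24 (SE 0.65), with adjusted p of 1.00 in both. Cacna2d1 differed by -1.54 in footprints (SE 0.90, adjusted p = 0.791) and 0.20 in mRNA (SE 1.33, adjusted p = 1.00). Differences of the size of these errors were not detectable at this spread.

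Translational efficiency, or footprints per mRNA, was tested for 47 of the 73 genes among 8876 as the interaction of assay and genotype. EdgeR called 0 in each of the 4 comparisons, where 0% of all genes were called. At an unadjusted p below 0.05 there were 4 of the 47 in C1483Y against WT (3.76% of all genes), 8 in L2427P against WT (4.22%), 5 with the mutants averaged against WT (3.61%) and 7 in L2427P against C1483Y (4.18%). In the same order DESeq2 called 5 (9.41% of all genes), 9 (6.33%), 5 (5.59%) and 11 (10.2%) of 45 genes with an adjusted p. Of the 47 genes 14 had a group at 0 in all its libraries, and the smallest p fell on such genes. They were Kcnd3 in C1483Y against WT, Kcna6 in L2427P and in both mutants against WT and Gria3 between the mutants, each with an edgeR adjusted p of 1.00. DESeq2 called Kcnd3 (adjusted p = 6.96e-09), Kcna6 for both mutants (0.0220) and Gria3 (0.00136), and not Kcna6 in L2427P (0.0567). Gria2 differed by -1.73 for both mutants against WT (log2, SE 1.24, edgeR adjusted p = 1.00).

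The scaffolds, auxiliary subunits and transporters were tested for the same comparisons, 40 of them in mRNA, 39 in footprints and 37 for translational efficiency. EdgeR called 0 in all 12, against 0% to 0.0105% of all genes. At an unadjusted p below 0.05 there were 0 to 3 in any of them, against 1.27% to 4.44% of all genes. Those were Dpp6, an auxiliary subunit of A-type potassium channels, Homer2, a postsynaptic scaffold, and Fgf12, a modulator of sodium channels. DESeq2 called 0 to 5 of these genes in a comparison, against 2.02% to 10.2% of all genes. Between footprints and mRNA edgeR also called 0 of the 37. Shank1 was higher and Homer1 lower at such a p (6.06% and 8.04% of all genes). DESeq2 called 4, against 18.9% of all genes.

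Footprint and mRNA levels were also compared over all genotypes, with 47 of the 73 genes tested. EdgeR called 1 higher in footprints (1.67% of all 8876 genes were called higher) and 0 lower (1.13%), and DESeq2 called 8 of 45 in either direction, against 18.9% of all genes. At an unadjusted p below 0.05 there were 4 higher (6.06% of all genes), Gria3, Gabbr2, Gabrb2 and Cacna1e, and 2 lower (8.04%), Kcnab2 and Kcnc1. The fit weighs the genotypes equally on the log scale, and for Gabrb2 the plain means had the other direction, 42.2 ± 46.2 CPM in footprints (SD, n = 8) and 59.2 ± 122 CPM in mRNA (SD, n = 9). Gabrb2 mRNA was at or near 0 in WT and C1483Y and at 177 ± 168 CPM in L2427P (SD, n = 3), where footprints were at 16.5 ± 14.5 CPM (SD, n = 3). With every footprint library set against every mRNA library, 0 of the 47 lay apart above (1.12%) and 0 below (1.31%). The 47 genes had a median log2 ratio of 0.34 against -0.32 for all genes, 25 of them above 0 and 22 below, with a median standard error of 2.15. For the 33 without a group at 0 in all its libraries the median was 0.67, against -0.12 for all 7575 such genes. Summed projection neuron and progenitor markers were also higher in footprints than in mRNA, as given above. So were median sums of neuron (8300 against 5732 CPM), astrocyte (650 against 279 CPM) and microglia (186 against 104 CPM) markers. Medians of interneuron and oligodendrocyte lineage markers were higher too, and those of endothelial and erythroid markers lower. The part of any of these markers in the ratios was not tested.

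The called gene was Gria3, an AMPA receptor subunit on the X chromosome. Its footprints were at 79.4, 143 and 63.9 CPM in WT, at 210 and 17.3 CPM in C1483Y and at 0, 34.3 and 47.7 CPM in L2427P. Gria3 mRNA was at 0.0200, 0.637 and 0 CPM in WT, at 0 in all 3 C1483Y libraries and at 31.6, 0 and 84.4 CPM in L2427P. In WT and C1483Y every footprint library was thus above every mRNA library, and in L2427P the assays overlapped. The means were 74.4 ± 69.9 CPM in footprints (SD, n = 8) and 13.0 ± 28.8 CPM in mRNA (SD, n = 9), a ratio of 5.73 (edgeR adjusted p = 0.0319). With the C1483Y mRNA at 0 no fitted fold is given. The call was kept without footprint library WT replicate 1, WT replicate 3, C1483Y replicate 2 or L2427P replicate 1 and without mRNA library L2427P replicate 3. It was lost without any of the other 12 libraries, with adjusted p up to 0.133. Over all 25 alternatives, blocks included, the adjusted p ranged from 4.68e-06 to 0.558 and 10 were below 0.05.

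**Figure D4:**
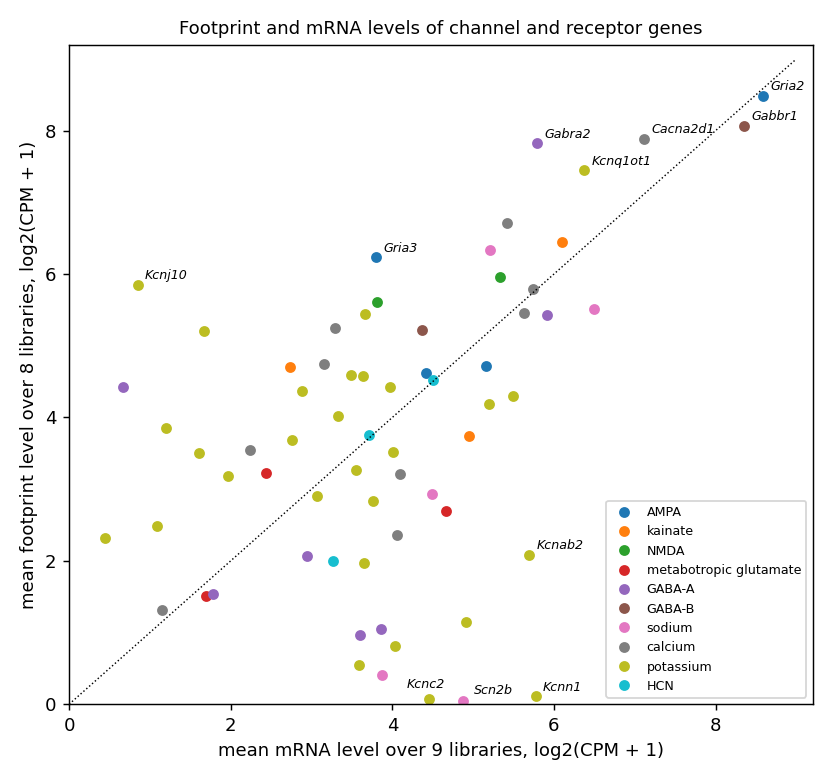
Mean footprint level over 8 libraries against mean mRNA level over 9 libraries, both as log2(CPM + 1), for 67 of the 73 genes coloured by family, with the dotted line at equal levels. Gria3 (74.4 CPM in footprints and 13.0 CPM in mRNA) lies above the line, and Kcnn1, Scn2b and Kcnc2 lie near 0 in footprints.

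Gria2 and Gabbr1 had log2 ratios of footprints to mRNA of 0.07 (SE 0.59) and -0.17 (SE 0.69), and Cacna2d1 of 0.67 (SE 0.91), none of which passed (edgeR adjusted p of 0.995, 0.967 and 0.836). Kcnq1ot1 had 10 footprint counts in all 8 libraries and a log2 ratio of 1.22 (SE 1.19, edgeR adjusted p = 0.712). The 63 long noncoding RNAs tested had a median of -2.76, and the 8291 protein-coding genes one of -0.29. Gabra2 averaged 226 ± 183 CPM in footprints (SD, n = 8) and 54.4 ± 42.8 CPM in mRNA (SD, n = 9), with a log2 ratio of 2.21 (SE 1.14, adjusted p = 0.357) that did not pass. Apart from the ratios, 3 of the 73 genes reached 10 counts only in mRNA libraries. Those were Kcnn1 and Scn2b, in 6 libraries each, and Kcnc2, a fast delayed-rectifier potassium channel, in 3. None reached them only in footprint libraries. The median total was 47748596 counts in mRNA libraries and 12825871.5 in footprint libraries, so 10 counts are easier to reach in mRNA. The share of all genes that did so was not computed, and no difference between the assays is drawn from these genes.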

How the data were processed

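Per the submitters' processing notes, reads were handled with Bowtie 1.1.2, TopHat2 2.1.1 and HTSeq against mm10, while the role of each tool, the annotation and any use of strand are not stated. For 17 libraries the authors deposited whole counts by gene symbol. Of the values the authors deposited for footprint library C1483Y replicate 3, 165 were not whole, so they were treated as estimated counts and used, rounded, in 1 alternative only. Summary rows were left out of totals. In the libraries used, reads outside any gene were 7.06% to 14.7% of the counts in the files. Reads aligned to several places were 21.9% to 77.5% (neither is given for footprint library C1483Y replicate 1). The displaced footprint library C1483Y replicate 3 had 4.34% and 9.05%. The 27 names turned into dates were left out, at 0.0935% to 0.328% of counts in the libraries used. CPM is a count scaled by the library's total over named genes.

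Differences were tested with edgeR 4.0.16 in R 4.3.3 (quasi-likelihood test, TMM scaling, filterByExpr with a minimum count of 10, Benjamini-Hochberg adjustment over all genes at 0.05) in 9 mRNA, 8 footprint or 17 libraries. DESeq2 1.42.0 was an alternative. Scripts were tested on simulated data. Alternatives were other size factors, no filter, TMM within each assay, footprint library WT replicate 3 divided by 3, the displaced library as deposited, each library left out, and replicate or library pair blocks. Named genes are the 3 with the highest CPM in each family, those called, the smallest p in each comparison without a call, and epilepsy genes. The genes, lists and rules were chosen with earlier results of these data known. Promoter sequence and annotation are RefSeq's, GRCm38.p6. Some genes that these rules name are not reported here.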

Additional observations from a re-analysis of the deposited data

How the results depend on the processing

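The number of channel and receptor genes called by edgeR was 0 in all 12 genotype comparisons, and DESeq2's Wald test gave other counts. It called 9, 6 and 11 in mRNA for L2427P, both mutants and L2427P against C1483Y, and 3, 1, 5 and 2 in footprints and 5, 9, 5 and 11 in translational efficiency for C1483Y, L2427P, both mutants and L2427P against C1483Y. Over all genes it called 3.39%, 3.16% and 5.9%, then 9.55%, 3.82%, 8.76% and 6.01%, and 9.41%, 6.33%, 5.59% and 10.2%. It called 8 between footprints and mRNA (18.9% of all genes), where edgeR called 1, or 2 without a filter on low counts, and 0 with the displaced library as deposited. The cause was not tested. Leaving out each library in turn gave 0 to 1 between footprints and mRNA, 0 to 1 in footprints for C1483Y against WT and for L2427P against C1483Y, and 0 in the other comparisons. Same-numbered libraries did not deviate together, with correlations of -0.0596 to 0.0605 within an assay and -0.00586 to 0.0210 between assays. The replicate number as a block gave 0 calls between footprints and mRNA, as did the library pair as a block, and 0 in the 12 genotype comparisons. For both mutants against WT some log2 differences changed sign. Cacna2d1 mRNA was at -0.80 with the replicate block, and Gabbr1 footprints at -0.089 with DESeq2 and -0.088 with its size factors in edgeR. Leaving out each library gave -0.45 to 0.056 for Gabbr1, -0.22 to 0.71 for Cacna2d1 and -1.11 to 0.038 for Kcnq1ot1 in mRNA, and -3.21 to 0.62 for Gabbr1 and -0.47 to 1.43 for Kcnq1ot1 in footprints. Under TMM effective library sizes, 2 group levels moved by more than the SD between replicates, and the others by less. Those were the C1483Y footprint levels of Gabrb2 and Cacna2d1. Leaving out a library cannot move the mean of so few replicates by more than their SD, so it does not test these levels. PCR duplicates cannot be told apart, so depth limits cover counting error only.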
